A study of Homo sapiens with 17 samples.

Results

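The replicative H3K4me3 mesas are 648 broad genomic stretches listed as carrying more H3K4me3 in senescent than in proliferating IMR90 cells, out of 6322 regions in the 5 lists of the series. They were taken as all regions of the deposited list, with no selection on any value. Of these, 587 (90.6%) lie on chromosomes 1 to 22, and their layout there is described below. All coordinates are on the human build hg18.

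IMR90 is a line of primary human lung fibroblasts with a limited replicative lifespan. The proliferating cells were at population doubling 24. The senescent cells had been passaged to doubling 87, where growth stopped, and were kept for 2 further weeks. Each state gave 1 library with an H3K4me3 antibody, and 2 libraries with an antibody against histone H3, and lamin B1 was mapped in 1 library of proliferating cells. The description label of the only senescent H3K4me3 library reads as a request to delete it, as does that of 1 senescent H3K27me3 library. The lists do not say which libraries entered them, so every mesa value carries that doubt. Beside these, a second H3K4me3 list came from cells at doubling 15 carrying an ER:Ras fusion switched on by 100 nM 4-hydroxytamoxifen, against control cells at doubling 15, with 1 library each. The ER:Ras construct had been brought in by retrovirus. Lists of H3K27me3 gains (mesas) and losses (canyons) came from the replicative cells, which gave 4 proliferating and 2 senescent libraries with that antibody. All groups share 1 cell line and growth at low oxygen. Every comparison below is between lists that carry no value per sample, so no region has an error, and neither the gain of H3K4me3 nor the cell type could be checked against signal or marker genes.

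Trimethylation of histone H3 at lysine 4 is laid down mainly by SET1 and MLL complexes and is usually found as narrow peaks at active promoters. Lamina-associated domains (LADs) are long stretches of the genome that touch the nuclear lamina, a mesh of lamin filaments under the nuclear envelope, and are mostly poor in genes and low in transcription. Senescent fibroblasts are known to lose lamin B1. Trimethylation at lysine 27 is the mark of Polycomb repression.

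Most mesas were not much longer than the shortest of the list. On the autosomes they ran from 502.0 kb to 3042 kb with a median of 689 kb and quartiles of 573 and 884 kb. In number, 187 were shorter than 600 kb, 93 reached 1000 kb and 6 reached 2000 kb. The shortest were 2 mesas of 502.0 kb at chr11:50949001-51450999 and chr17:74556001-75057999 and 1 of 503.0 kb at chr4:2023001-2525999. The longest, at chr6:38783001-41824999, measured 3.04 Mb and was followed by chr20:56534001-59257999 (2.72 Mb) and chr7:61657001-64091999 (2.44 Mb). These 3 differed in surroundings. The chromosome 6 mesa lay 86.4% under Ras-induced mesas and 63.1% under H3K27me3 mesas. The chromosome 7 mesa, close to the centromere, lay 55.0% under Ras-induced mesas and 0% under H3K27me3 mesas.

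Every autosome held mesas, from 5 on chromosome 21 to 53 on chromosome 1. Per 10 Mb of chromosome the number was 2.18 ± 0.579 (SD, 22 autosomes), lowest on chromosome 13 (1.25) and highest on chromosome 19 (3.29). Median mesa length by autosome ran from 596 kb on chromosome 18 to 948 kb on chromosome 20. Density thus spanned a wider relative range over autosomes than typical length did.

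**Figure D1:**
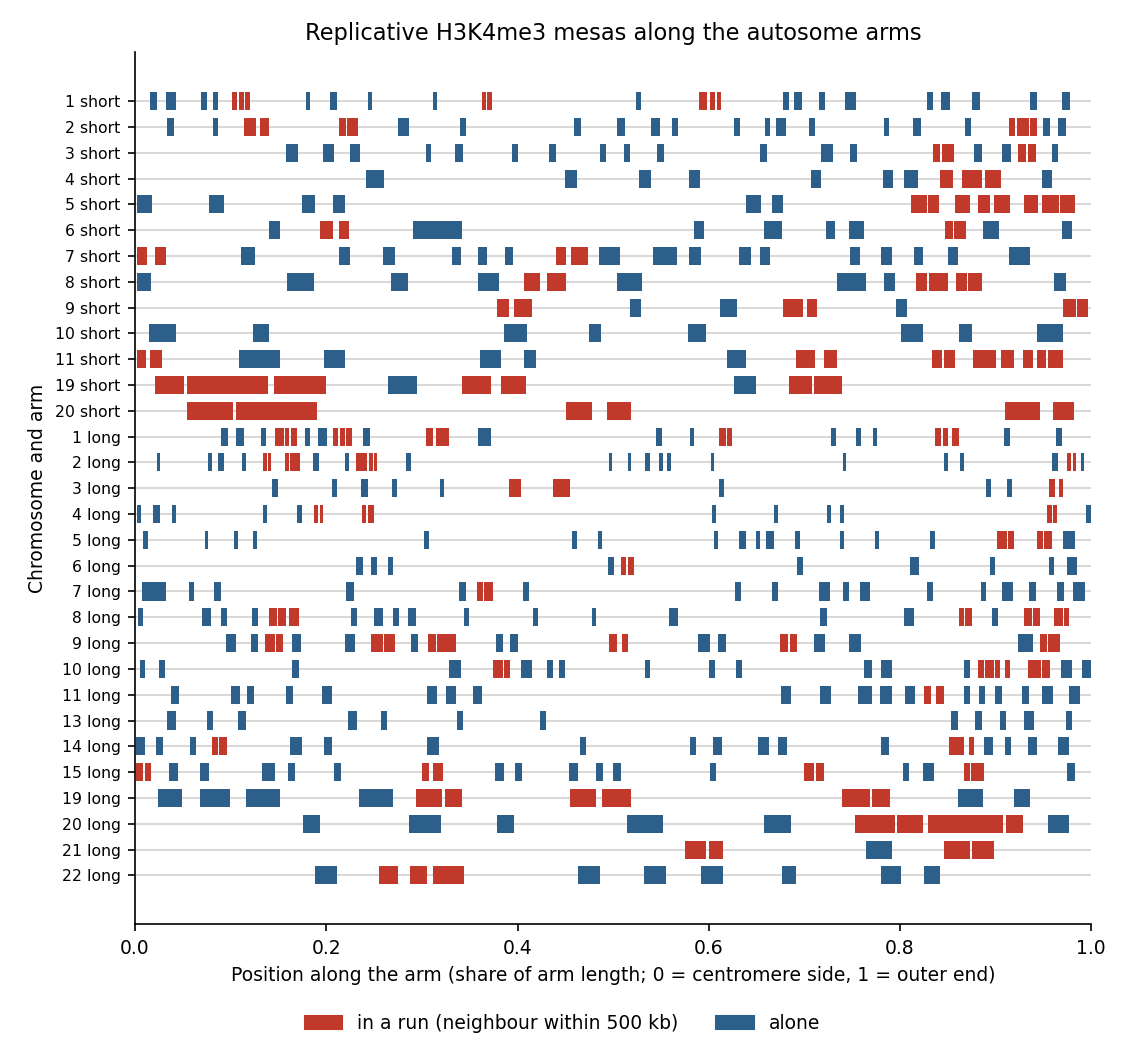
Each bar is 1 replicative H3K4me3 mesa, placed by its start and end along its chromosome arm (horizontal axis, share of the arm's length, 0 at the centromere side and 1 at the outer end). Rows are the 31 arms with a position, red bars are mesas with a neighbour within 500 kb and blue bars stand alone. Bars crowd near the outer end on many arms, such as the short arms of chromosomes 4, 5 and 11, while the long arms of chromosomes 4 and 13 have wide empty middles.

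Spacing was uneven. The 548 gaps between neighbouring mesas of an arm had a median of 1977 kb, with quartiles of 668 and 4249 kb and a range from 50.0 kb to 49.2 Mb. Their mean, 3577 kb, was well above the median. Of the gaps, 45 (8.21%) were under 100 kb, 116 were at most 500 kb, and 42 (7.66%) were 10 Mb or wider. To its nearest neighbour on the chromosome a mesa lay at a median of 948 kb. The 3 narrowest gaps, each of 50.0 kb, were on chromosomes 5 (from 7942000), 8 (from 143386000) and 9 (from 88764000), and each lay wholly inside a single LAD. In all, 4 gaps had that smallest width, which was also the smallest in the Ras-induced list. Whether a cutoff set this width is not given in the sources used here. The median gap of an autosome was 1.90 ± 0.661 Mb (SD, 22 autosomes), from 0.573 Mb on chromosome 18 to 3.11 Mb on chromosome 13.

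For scale, the Ras-induced list held 755 autosomal mesas, more than the replicative list, with a median length of 751 kb. Its 716 gaps had a median of 1199 kb with quartiles of 378 and 2884 kb. Gaps of 2000 to 5000 kb were the most frequent width class in the replicative list (27.7%), and gaps of 1000 to 2000 kb in the Ras-induced list (22.5%). The lists differ in size, and the difference in spacing was not tested.

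**Figure D2:**
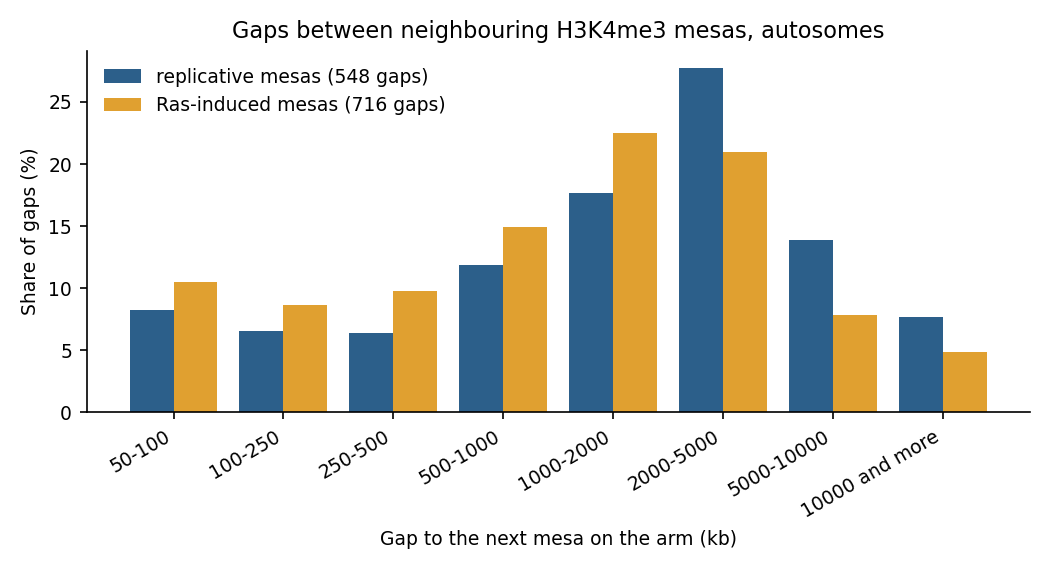
Bars give the share of gaps (vertical axis, %) in each width class (horizontal axis, kb) for the 548 gaps between replicative mesas and the 716 gaps between Ras-induced mesas on the autosomes. The highest bar is at 2000 to 5000 kb for replicative mesas and at 1000 to 2000 kb for Ras-induced mesas.

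How many mesas stood alone depended on the distance allowed between neighbours. With neighbours joined across gaps of at most 500 kb, 205 mesas (34.9%) formed 89 runs and 382 (65.1%) had no neighbour that close. The runs were small: 68 were pairs, 16 were of 3 mesas, 4 of 4 and 1 of 5. Joining up to 250 kb put 25.9% of mesas in runs, and up to 1000 kb 301 mesas (51.3%), with 9 in the fullest run, so that at 1000 kb fewer mesas stood alone (48.7%) than in runs. At 500 kb, 27 mesas (4.60%) had such a neighbour on both sides. A run had a median length of 1.84 Mb, and mesas filled a median of 89.9% of it, from 72.4 to 97.7%. No mesa was shorter than 502.0 kb and no joined gap wider than 500 kb, so high fill follows in part from the definition. Mesas in runs (median 699 kb) and mesas alone (678 kb) were of similar length. In the Ras-induced list the same joining put 340 mesas (45.0%) into 133 runs, the fullest with 7 mesas.

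Runs took up different shares of the autosomes' mesas. Chromosome 13 had none, with 0 of 12 mesas in a run, and also the fewest mesas per 10 Mb (1.25). Chromosomes 19 and 20 had 13 of 21 (61.9%) and 10 of 16 (62.5%), and chromosome 19 had the most mesas per 10 Mb (3.29). Chromosome 21 had the highest share, 4 of 5, on few mesas and at 1.34 per 10 Mb. These shares take no account of mesa density.

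The fullest run lay at chr18:40484001-44314999. Its 5 mesas were all short, from 514 to 636 kb, and were set apart by gaps of 58.0, 429, 348 and 85.0 kb. It met 3 LADs, and 3 of its mesas reached out of them. The third mesa of the run lay 0% under Ras-induced mesas and 92.4% under H3K27me3 mesas, while the first and second lay 100% under Ras-induced mesas.

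The longest run lay at chr20:53908001-59970999 and spanned 6.06 Mb in 4 mesas of 1463, 924, 2724 and 615 kb. Mesas filled 94.4% of it, and its gaps of 59.0, 180.0 and 98.0 kb lay only 17.5% in LADs. In this run most of the gap sequence was therefore outside the lamina-bound stretches, although 86.5% of the run as a whole was inside.

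The run at chr17:8494001-11820999 had the opposite make-up. It also joined 4 mesas, over 3.33 Mb, but 97.7% of it lay in LADs and 100% of its gaps did, and 100% of the gaps were also under H3K27me3 mesas. A run of 3 mesas at chr19:19627001-23994999 (4.37 Mb) lay wholly in 1 LAD, with 94.7% under mesas. Its members were 79.5, 93.8 and 99.2% under Ras-induced mesas and at most 0.772% under H3K27me3 mesas. Runs thus differed in whether H3K27me3 had been gained in the same place.

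Neighbours at most 500 kb apart shared a LAD in 70 of 116 gaps (60.3%). In 105 of the 548 gaps (19.2%) the flanking mesas shared a LAD, and those gaps had a median of 214 kb. The other 443 gaps had a median of 2537 kb. A gap between mesas that share a LAD cannot be wider than that LAD, so the difference between these medians follows in part from the definition. Among gaps under 250 kb, 57 of 81 (70.4%) lay wholly inside 1 LAD, against 13 of 35 (37.1%) at 250 to 500 kb, 28 of 162 (17.3%) from there to 2 Mb and 7 of 152 (4.61%) at 2 to 5 Mb. A wide gap has more room to meet a LAD edge, so the order of these shares follows in part from width.

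What lay in the gaps changed with their width. In gaps under 250 kb, 46.0% of base pairs were under Ras-induced mesas, 35.6% under H3K27me3 mesas and 9.81% under canyons. In gaps of 10 Mb and more the shares were 10.2, 3.88 and 53.6%. Canyon cover was higher in each wider class, with 17.5% at 250 to 500 kb, 27.7% from there to 2 Mb, 34.6% at 2 to 5 Mb and 43.9% at 5 to 10 Mb. LAD cover did not follow that order: it was 72.1% in the narrowest class, 52.3% at 2 to 5 Mb and 60.2% in the widest. Over all gaps the shares were 56.5% in LADs, 18.1% under Ras-induced mesas, 13.1% under H3K27me3 mesas and 43.4% under canyons. LAD cover of the widest gaps was thus close to that of all gaps, which include them, and above the 54.6% at 5 to 10 Mb. Their canyon cover was above that of all gaps.

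**Figure D3:**
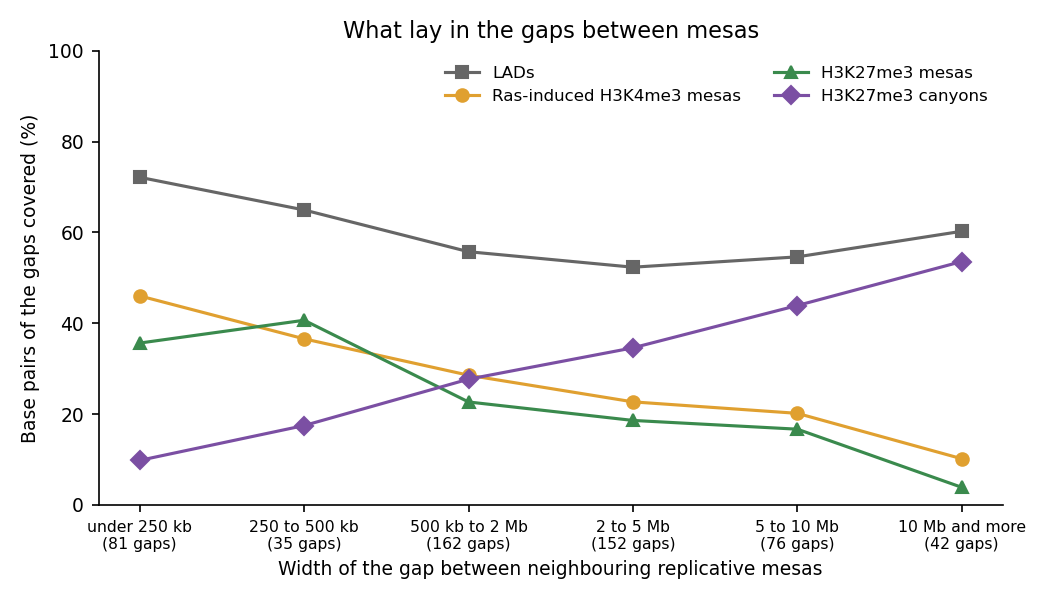
Lines give the share of gap base pairs (vertical axis, %) under LADs, Ras-induced H3K4me3 mesas, H3K27me3 mesas and H3K27me3 canyons, by the width of the gap between replicative mesas (horizontal axis, with the number of gaps). Canyon cover goes from 9.81% in the narrowest to 53.6% in the widest class, and Ras-induced mesa cover from 46.0 to 10.2%.

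The 42 gaps of 10 Mb and more lay on 18 autosomes and made up 741 Mb. They were in LADs over a median of 59.6% of their length (23.9 to 95.9%) and under canyons over a median of 52.6% (0 to 98.4%). At least 50% of the length was under canyons in 23 of them, and less than 10% in 2. Of the 42, 3 met no Ras-induced mesa, and the median gap met 3. Such wide gaps have more room to meet one. By base pairs they were poorer in Ras-induced mesas than all gaps, themselves included (10.2 against 18.1%). On chromosomes 12, 16, 17 and 18, where the stretch taken as the centromere lay elsewhere, a wide gap may span the true centromere.

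The widest gap, on chromosome 4 from 86945000 to 136095000, spanned 49.2 Mb. It met 37 LADs that made up 71.6% of it, was 61.6% under canyons, and met 2 Ras-induced mesas. Next was a gap of 40.8 Mb on chromosome 13, from 59221000 to 99984000, with 66.5% in LADs and 88.6% under canyons. The third, on chromosome 2 from 137435000 to 168009000 (30.6 Mb), was 65.5% in LADs and 34.4% under canyons. A second wide gap on chromosome 4, from 155266000 to 184886000 (29.6 Mb) and next in width, was a contrast. It had 77.1% of its length in LADs but 2.04% under canyons, 1.27% under Ras-induced mesas and 1.98% under H3K27me3 mesas, so that hardly any of it carried a listed change. It was named after its values were seen.

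Along the arms, mesas were most frequent towards the outer ends and sparsest in the middle. Arm position was measured from 0 at the centromere to 1 at the outermost region of any list, for the 506 mesas on 31 arms of 18 autosomes. The median was 0.549 with quartiles of 0.238 and 0.839. With all 22 autosomes, as the measure was first set, the median was 0.549 as well. By arm, the median position ran from 0.243 on the long arm of chromosome 4 to 0.828 on the short arm of chromosome 5, and it was above 0.5 on 18 arms and below on 13.

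When each arm was cut into 10 equal bins, counted from the centromere, bin 10 held 78 mesas and bin 9 held 69. Bins 5 and 6 held 34 each. Mesas covered 26.4% of bin 10, 22.1% of bin 9 and 10.2% of bin 5, against 16.7% of the arms as a whole. A second, lower maximum was in bin 2, with 54 mesas and 19.7% covered, and the bin next to the centromere was 15.9% covered. Arms varied widely around this order. Averaged over 31 arms, cover was 26.4 ± 17.3% (SD) in bin 10 and 12.5 ± 12.6% in bin 5. Bin 10 was above the rest of its own arm by 8.49 ± 19.4 percentage points (SD), higher on 21 arms and lower on 10, so the spread between arms was larger than the mean difference. For bins 5 and 6 together the difference was -7.43 ± 11.9 points, lower on 22 arms and higher on 9.

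Single arms showed both extremes. The outermost bin of the short arm of chromosome 5 was 63.2% under mesas and that of the short arm of chromosome 20 was 59.2%. On the short arm of chromosome 19 and the long arms of chromosomes 21 and 22 the outermost bin held no mesa base pair. On the long arm of chromosome 22 that bin was 90.7% in LADs, and on chromosome 21 it was 25.2%. LADs at the outer end of an arm were therefore present on chromosome 22 without a mesa.

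The outer and inner ends of the arms were both rich in LADs and differed in mesas. LADs made up 70.3% of bin 10 and 76.0% of bin 1, and 56.6% of bin 6. Of LAD base pairs, mesas covered 33.8% in bin 10, 29.4% in bin 9, 20.2% in bin 1 and 13.9% in bin 5. Base pairs outside LADs were less covered throughout, at 8.79% in bin 10 and 2.50% in bin 1. Ras-induced mesas, from cells of another doubling and another route to senescence, covered 47.7% of bin 10, 39.2% of bin 9 and 16.2% of bin 1. Sequencing depth and mappability along the arms are not given with the lists, and their part in these differences was not tested.

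**Figure D4:**
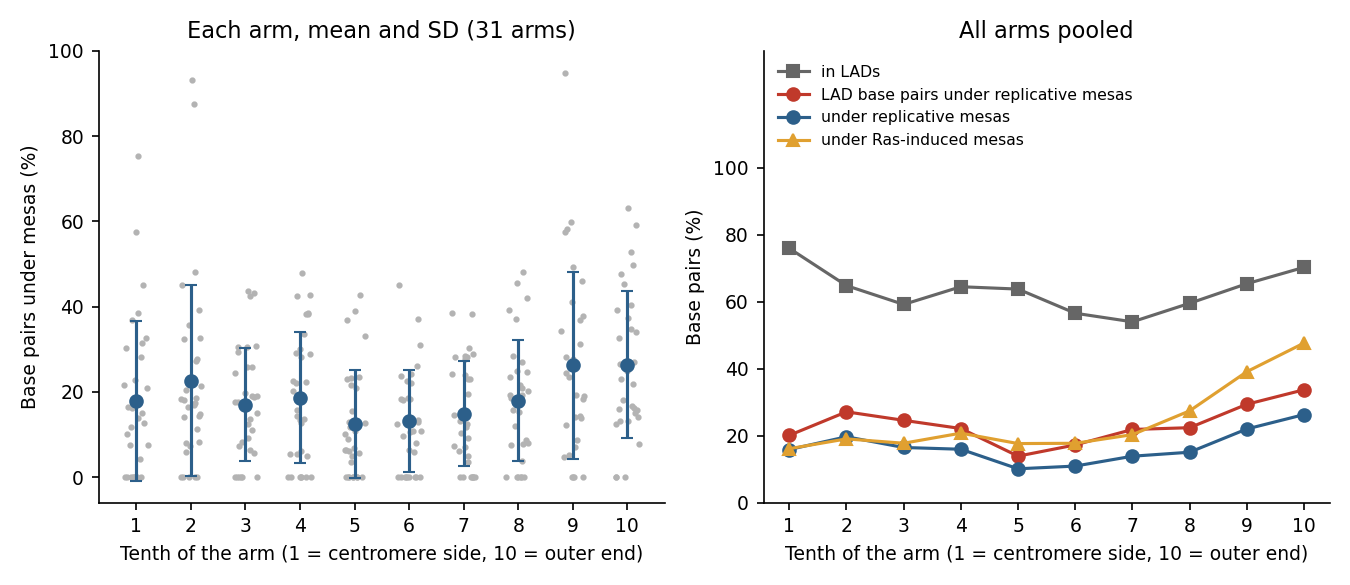
Left, cover by replicative mesas (vertical axis, % of base pairs) in 10 equal bins of each arm from the centromere side to the outer end, with grey points for single arms, and blue points and bars for the mean and SD over 31 arms. Right, the same bins pooled over arms, with LAD cover, cover by replicative and by Ras-induced mesas, and the share of LAD base pairs under replicative mesas, which is 33.8% in bin 10 and 20.2% in bin 1.

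Measured in base pairs from the ends, the outer end was again more covered than the inner end, but the inner end was above the 16.7% of whole arms, whereas bin 1 was below it. The last 5 Mb of the arms were 26.6% under mesas and 70.1% in LADs, and the first 5 Mb from the centromere were 20.0% under mesas and 78.0% in LADs. Short arms held 2.60 ± 0.601 mesas per 10 Mb (SD, 13 arms) and long arms 2.17 ± 0.793 (18 arms), a difference smaller than the spread. Within chromosomes, mesa cover was higher on the short arm in 9 of the 13 autosomes with both arms used. The mesas nearest to and farthest from the centromere in arm position were both on the long arm of chromosome 4, at chr4:52484001-53138999 and chr4:190497001-191254999, and both lay wholly inside a LAD.

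Mesas of the outer and inner bins also had different company. Of the 78 mesas in bin 10, 38 (48.7%) were in runs and 74.6% of their base pairs lay under Ras-induced mesas. Of the 48 in bin 1, 11 (22.9%) were in runs and 39.7% of their base pairs lay under Ras-induced mesas. Among all autosomal mesas 34.9% were in runs. Bin 10 held more mesas than bin 1 in the same length of sequence, which by itself brings neighbours closer. The bins themselves differed in the same direction, with 47.7% of all base pairs of bin 10 and 16.2% of bin 1 under Ras-induced mesas. The mesas of both bins were thus above their own bin in Ras-induced cover. H3K27me3 mesas covered 54.5% of the base pairs of the bin 10 mesas and 28.1% of those in bin 1. The H3K27me3 cover of the bins themselves was not measured, so these shares cannot be set against their own bin. LAD edges were crossed by 35 of the 78 (44.9%) and by 13 of the 48 (27.1%), against 42.9% of all autosomal mesas. These are counts over neighbouring regions of 1 list, and no test was run on them.

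Per LAD, mesas were few. Of 2001 autosomal LADs, 540 (27%) met at least 1 mesa: 459 met 1, 61 met 2, 18 met 3, 1 met 4 and 1 met 6. The other 1461 (73.0%), with a median length of 320 kb, met none. LADs with 1 mesa had a median length of 920 kb, those with 2 of 2170 kb and those with 3 of 3910 kb. By autosome, the share of LADs with a mesa ran from 17.4% on chromosome 13 (12 of 69) to 40.9% on chromosome 11 (38 of 93).

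The share of LADs that met a mesa was higher in each longer class up to 2 Mb and about level from there on. A mesa was met by 50 of 638 LADs under 250 kb (7.84%), 55 of 437 at 250 to 500 kb (12.6%) and 146 of 402 between there and 1 Mb (36.3%). The share was 54.9% at 1 to 2 Mb (167 of 304), 55.6% at 2 to 5 Mb (105 of 189) and 54.8% at 5 Mb and more (17 of 31). Among the longer classes, LADs more often met several mesas: 6.91% of LADs of 1 to 2 Mb met at least 2, against 23.8% at 2 to 5 Mb and 38.7% at 5 Mb and more. Cover went the other way. Mesas covered 33.0% of LAD base pairs at 1 to 2 Mb, 21.9% at 2 to 5 Mb and 15.9% at 5 Mb and more. A longer LAD has more room to meet a mesa. Per 10 Mb of LAD, meetings with a mesa numbered 5.05, 3.64, 5.19, 4.51, 2.87 and 2.15 from the shortest to the longest class.

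Where a LAD was hit, it was hit nearly whole if short and in part if long. Among LADs with a mesa, the median share under mesas was 85.3% from 500 kb to 1 Mb, 57.0% at 1 to 2 Mb, 32.3% at 2 to 5 Mb and 23.9% at 5 Mb and more. Since no mesa was shorter than 502.0 kb, any mesa that lies in a LAD of such a size takes a large part of it.

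**Figure D5:**
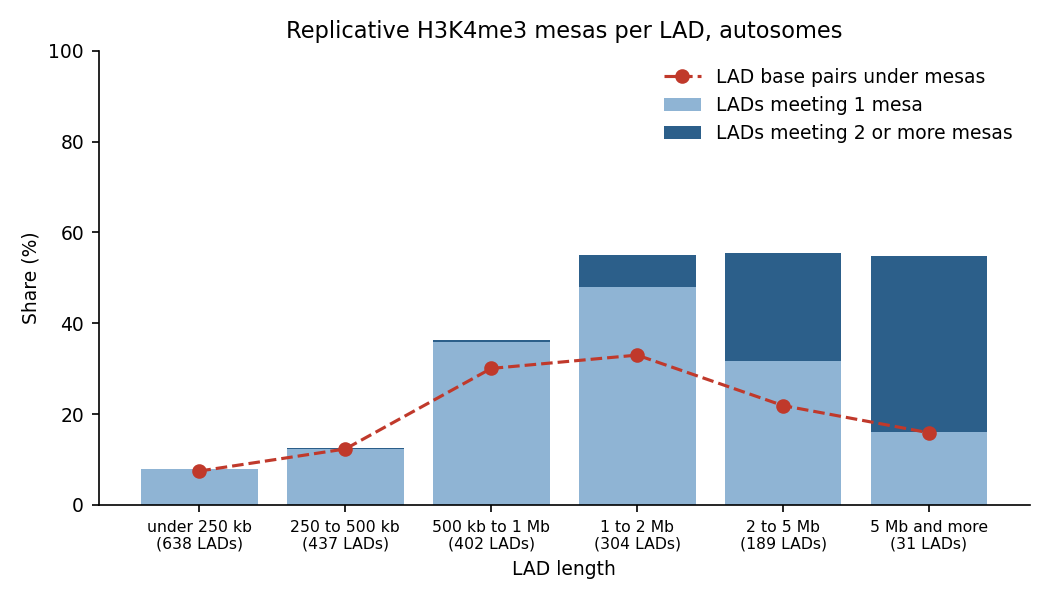
Stacked bars give the share of LADs (vertical axis, %) that met 1 mesa (light) or at least 2 (dark), by LAD length (horizontal axis, with the number of LADs), and red points give the share of LAD base pairs under mesas. The bars reach 54.9, 55.6 and 54.8% in the last 3 classes, while the red points go from 33.0 to 15.9%.

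The LAD with most mesas, chr5:510001-6680000, lay near the tip of the short arm of chromosome 5 and was 6.17 Mb long. Its 6 mesas measured 756, 789, 701, 753, 577 and 729 kb and covered 69.8% of it. Their midpoints stood at 0.103, 0.239, 0.395, 0.620, 0.760 and 0.936 of its length, so they were spread along the whole LAD. Ras-induced mesas covered 94.9% of this LAD and H3K27me3 mesas 75.7%. Next came chr2:114440001-119720000, 5.28 Mb with 4 mesas and 53.4% covered. Ras-induced mesas covered 62.1% of it. Its mesas stood in 2 pairs towards the ends, at 0.0718 and 0.191 and at 0.706 and 0.943 of its length, and the last crossed the edge. Among the 18 LADs with 3 mesas, the first by position was chr1:46920001-50720000, with 56.9% covered.

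The longest autosomal LADs held no mesa at all. The 3 longest were also the 3 longest without one. Of these, chr5:21820001-30800000 (8.98 Mb) was 100% under canyons and 11.4% under Ras-induced mesas. The LAD chr9:38380001-47200000 (8.82 Mb), beside the stretch taken as the centromere, was 1.10% under canyons and 0% under both kinds of gain. The LAD chr4:160570001-169270000 (8.70 Mb) had 0% under canyons, 0% under Ras-induced mesas and 3.74% under H3K27me3 mesas. Long LADs without a mesa thus included 1 wholly under H3K27me3 loss and 2 with almost no listed change.

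In relation to LAD edges, 325 autosomal mesas (55.4%) lay wholly inside 1 LAD and 252 (42.9%) crossed at least 1 edge. The remaining 10 (1.70%) met no LAD. Of the crossing mesas, 181 had 1 end outside a LAD, 38 had both ends outside and 33 bridged, with both ends inside LADs and at least 1 inter-LAD stretch between. A mesa with both ends outside holds 1 or more whole LADs. In all, 67 mesas (11.4%) held at least 1 whole LAD, and 74 LADs lay wholly inside a mesa. Median length was 664 kb for inside mesas, 701 kb for mesas with an end outside and 805 kb for bridging ones, and a longer mesa has more chance to meet an edge.

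Mesas met few LADs each. Of the 587, 513 (87.4%) met exactly 1 LAD, 61 met 2, 2 met 3 and 1 met 4. That last mesa, at chr9:83679001-84616999 (938 kb), had 6 LAD edges inside it and 2 whole LADs, and lay 67.0% in LADs. The 2 mesas that met 3 LADs were chr3:59585001-60364999 and chr18:75203001-76103999.

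The reach past a LAD edge was short. It stops before the next LAD by definition, since an end that arrives there does not count as outside. Inter-LAD stretches had a median of 300 kb, so short reaches follow in part from this. The 257 mesa ends outside LADs lay at a median of 88.0 kb from the LAD edge they had crossed, with quartiles of 34.0 and 186 kb. Of these ends, 139 (54.1%) reached at most 100 kb, 45 (17.5%) over 250 kb and 3 (1.17%) over 500 kb. The farthest was chr10:79469001-80514999, which reached 915 kb past a small LAD and lay 12.4% in LADs and 100% under Ras-induced mesas. Next were chr6:13998001-14910999, with a reach of 881 kb and 100% under canyons, and chr6:90650001-91279999, with 540.0 kb. At least 90% of the length was in LADs in 86 of the 252 crossing mesas, so little of their length lay outside. They include bridging mesas, for which this share does not measure how far the mesa ran past an edge. Counting an edge only when it lay at least 50 kb inside the mesa left 193 crossing mesas.

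Inside mesas also tended to sit near an edge. Their nearer LAD edge was at a median of 95 kb, and within 100 kb for 165 of 325 (50.8%). It was beyond 1 Mb for 30 (9.23%). The LAD around an inside mesa had a median length of 2.00 Mb, and the mesa took a median of 33.7% of it. In 107 of the 325 cases (32.9%) the mesa took at least 50% of its LAD, which limits how far an edge can be. On a scale from 0 at the edge to 1 when centred in the LAD, the median offset was 0.291. For the 280 Ras-induced mesas wholly inside a LAD the median distance to the nearer edge was 298 kb. The distances take no account of LAD length, and this difference between the lists was not tested.

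The stretches between LADs were seldom crossed. Of 1966 inter-LAD stretches, 68 (3.46%) were bridged by a mesa, 252 (12.8%) were entered and 1646 (83.7%) were free of mesas. Bridged stretches were short, with a median of 110.0 kb, while all stretches had quartiles of 140.0 and 640.0 kb. The share bridged was 11.5% under 100 kb (30 of 262), 4.83% at 100 to 250 kb (29 of 600), 1.67% at 250 to 500 kb (8 of 478), 0.287% from there to 1 Mb (1 of 349) and 0% in the 277 of 1 Mb and more. The widest bridged stretch, at chr22:25820001-26330000, measured 510.0 kb and lay under a mesa of 1.17 Mb. A mesa cannot bridge a stretch longer than itself.

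H3K27me3 differed between the parts of mesas inside and outside LADs. Among crossing mesas, the parts inside LADs lay 34.1% under H3K27me3 mesas and 20.2% under canyons, and the parts outside 8.75% and 44.1%. The gaps between mesas lay 13.1% under H3K27me3 mesas and 43.4% under canyons. These gaps were 56.5% in LADs, so they are not a like background for the outside parts. Gap sequence outside LADs was not measured by itself. Mesas wholly inside a LAD lay 51.0% under H3K27me3 mesas and 6.49% under canyons. Ras-induced mesas covered similar shares of all 3, at 63.4, 58.2 and 58.4%. The 10 mesas that met no LAD lay 61.3% under canyons, and their longest members were chr17:43111001-43876999 (766 kb, 99.9% under canyons), chr16:85229001-85916999 (688 kb, 100%) and chr9:115791001-116399999 (609 kb, 82.0%). These shares were not tested.

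The share of crossing mesas varied among autosomes, at 43.8 ± 12.7% (SD, 22 autosomes). It was lowest on chromosome 19, with 3 of 21 (14.3%), and highest on chromosome 11, with 25 of 37 (67.6%). On chromosome 13, 8 of 12 crossed. Mesas alone crossed in 174 of 382 cases (45.5%) and mesas in runs in 78 of 205 (38.0%).

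In the Ras-induced list, 280 of 755 autosomal mesas (37.1%) lay wholly inside 1 LAD, 434 (57.5%) crossed an edge and 41 (5.43%) met none. Ras-induced mesas were longer, which gives them more room to meet an edge. The lamin B1 library came from the proliferating cells at doubling 24, so the edges are those of the cells before senescence, and not of the Ras-carrying cells.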

How the data were processed

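The series holds 17 chromatin immunoprecipitation sequencing libraries in 11 groups, and the deposited data used here are 5 region lists for the series as a whole. The H3K4me3 comparison has 1 senescent and 1 proliferating library, and the senescent one carries a delete mark in its description label. Bowtie 0.12.5 and the build hg18 are named in the submitters' processing notes. How regions were called, with which cutoffs, whether H3 served as the control, and how deep the libraries were is not given in the sources used here. The values deposited by the authors are start and end coordinates, with no signal, score or p-value per region. The smallest gap in both H3K4me3 lists was 50.0 kb and the smallest mesa on the autosomes was 502.0 kb, so the layout holds no shorter regions or gaps. Whether cutoffs set these minima is not stated.

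Layout was computed with Python 3.11.15 and numpy 2.4.6. Gaps run from the end of a mesa to the start of the next on the same arm. Overlaps count from 1 bp. Mesas were joined into a run across gaps of at most 500 kb. Centromeres were taken as the longest stretch of a chromosome without a region in any list, because no hg18 table of centromeres was used. On chromosomes 12, 16, 17 and 18 that stretch began in the second part of the chromosome, where by convention the centromere does not lie, and these 4 were left out of arm positions after the data were seen. A first form of that criterion, a first arm longer than the second, had also left out chromosome 1 and was replaced. Arms under 5 Mb were left out. Named regions are the extremes of each measure (3 longest, shortest, widest, narrowest or fullest). The code for gaps, runs, mesas per LAD, LAD classes and the longest empty stretch recovered the known layout in 20 of 20 simulated chromosomes. Arm positions, arm bins, reach past edges and inter-LAD stretches were not part of that check. Nor does it show that the longest empty stretch of a real chromosome is its centromere. The members, lists and measures were chosen with earlier results of these data known. With 1 library a side and 1 list, no test was run and no p-value is given, and spreads are over arms, autosomes or regions, which are not replicates. The read depth is unknown, so no precision can be given for a region. Alternatives covered run gaps, mesa length, LAD joining, edge tolerance, centromeres and chromosomes.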

Additional observations from a re-analysis of the deposited data

How the results depend on the processing

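In all, 26 alternative values were computed for 5 measures, and 23 stayed within 1.5 times the count or inside the 95% binomial rank interval of the median. The 3 others came from keeping only mesas of at least 700 kb, which by construction leaves 287 of the 587 autosomal mesas: the median gap became 3227 kb, the number of runs 24 and the number of mesas crossing a LAD edge 133. Runs numbered 71 when gaps of at most 250 kb were joined and 120 at 1000 kb, where the share of mesas in runs was 25.9 and 51.3%, against 34.9% at 500 kb. The median arm position ranged from 0.548 to 0.560. The count of LADs with a mesa fell to 438 when at least 50% of the mesa had to lie in the LAD. Crossing mesas numbered 193 when the edge had to lie at least 50 kb inside. Joining LADs up to 20 or 50 kb apart changed nothing, since no 2 LADs were closer than 60 kb. Those alternatives are counted among the 23 although they could not have differed. Joining up to 100 kb, added after the data were seen, left 499 LADs with a mesa and 225 crossing mesas. No paired analysis was possible because the H3K4me3 groups hold 1 library each and the lists carry no replicate. For the same reason the rank interval, which treats neighbouring regions of 1 list as independent, holds no replicate error. Depth per region is unknown.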

Other observations

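Chromosome X, left out of the layout above, held the other 61 mesas, or 3.94 per 10 Mb. Their median gap was 484 kb (59 gaps), and 45 of the 61 (73.8%) stood in 14 runs. The run with most mesas on X, at chrX:62103001-73851999, joined 7 mesas over 11.7 Mb, 90.9% of it under mesas. Only 14 of the 61 crossed a LAD edge, and the other 47 lay wholly inside 1 LAD. Of 47 LADs on X, 32 (68.1%) met a mesa. The LAD at chrX:73430001-95970000, 22.5 Mb long, met 6 mesas and was 24.4% covered. X values were chosen after earlier results had shown high cover on X, and no test of X against the autosomes was run.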
